A study of Mus musculus with 22 samples.

Results

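The cytoplasmic ribosomal protein genes were followed across 4 RNA libraries of primary mouse embryonic fibroblasts (MEFs). Members were taken by symbol: every gene of the deposited tables named Rps or Rpl with a number (with an optional a, x or y ending), the P-stalk genes Rplp0, Rplp1 and Rplp2, and Rpsa, while paralogs whose symbols end in l or l1 were left out. The rule found 74 of 21032 genes, 31 of the small and 43 of the large subunit, in 85 transcript entries. RefSeq lists 73 of them as protein coding. The other, Rps4y2, is called Rps4l there and is listed as a transcribed pseudogene. The X-linked members of the family, among them Rps4x, are not analysed here, because the tables cover the autosomes.

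The libraries were made from C57BL/6 MEFs of 2 genotypes. The wild-type cells (WT, Lsh+/+) gave libraries WT1 and WT2, and the knockout cells (KO, Lsh-/-) gave KO1 and KO2. Lsh, encoded by Hells, is an SNF2-type remodeller of chromatin, and cells without it lose DNA methylation at many sites. According to the labels, all the cells came from the bodies of embryos of stage E13.5, were chosen by genotyping and were used at passage 3 to 4. Which part of Hells was deleted, how many embryos each culture came from and what the replicate number stands for (litter, day, run) are not given there. The p-values therefore measure the spread between these libraries, which may in part be technical. A further 18 samples of chromatin and input DNA are not analysed here.

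Each ribosome holds a single copy of nearly every ribosomal protein, except for the P-stalk proteins Rplp1 and Rplp2 of the large subunit, which are present in more than a single copy. The genes are scattered over the genome, have no shared operon, and are among the most highly expressed genes of any growing cell. Most of their mRNAs begin with a C followed by a run of pyrimidines, the 5′ TOP motif, through which mTOR and Larp1 adjust their translation. Many ribosomal protein genes have left processed pseudogenes behind, so that short reads from them can match several places in the genome.

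The 4 libraries held 122.5 to 176.6 M (mega) mapped reads, and levels are in RPKM, a read count divided by transcript length in kilobases and by M mapped reads. The tables of WT1 and KO1 have 26886 transcript entries and those of WT2 and KO2 have 21136, so the tables differ in content by replicate number. Hells was at 0.865, 1.06, 0.430 and 0.550 RPKM across WT1, WT2, KO1 and KO2, lower in KO within both numbers. Fibroblast markers were present at 14 of 14 and summed to between 3172 and 3608 RPKM in every library. Gapdh was at 0.160, 0, 0.298 and 0.179 RPKM, whereas Actb was at 2306, 1492, 1825 and 1228. Gapdh is used by every cell, so a value near 0 in these tables is a listed value and cannot be read as silence. Gapdh also has many pseudogenes, and the part of reads shared with them in its level was not tested.

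Ribosomal protein genes spanned nearly the whole range of the tables. Rpl41, which encodes the smallest protein of the large subunit, had the highest mean level of all genes, at 1917 RPKM, above H19 at 1782 and Actb at 1713. At the other end, 9 members were listed at 0 in WT1 and KO1 and have no entry in WT2 and KO2: Rpl9, Rpl12, Rpl28, Rpl38, Rps10, Rps12, Rps13, Rps21 and Rps28. Members at 0 in both replicate 1 libraries made up 12.2% of the family, against 24.8% of all genes. A further 13 members stayed above 0 and below 1 RPKM in every library that lists them, 38 reached at least 10 RPKM in every library and 7 at least 100 RPKM in every library.

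The most abundant members had similar levels in all 4 libraries. Rpl41 was at 1987, 1812, 1630 and 2237 RPKM across WT1, WT2, KO1 and KO2. Rplp1, a stalk protein that helps to recruit elongation factors, was at 663, 619.8, 623 and 757 RPKM, and Rpl14 at 247, 229, 223 and 261 RPKM. None of these 3 genes separated the genotypes, since KO1 was lowest or next to lowest and KO2 highest for each.

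Rplp0, the stalk protein that anchors the others, was at 212, 257, 191.5 and 270.1 RPKM across WT1, WT2, KO1 and KO2. Rps2, a small subunit protein near the mRNA entry channel, was at 222, 185, 155 and 222 RPKM. For Rplp0 the KO libraries lay on either side of the WT libraries, and for Rps2 KO2 lay between WT2 and WT1. Among members with entries in all 4 libraries the lowest were Rpl3, a large subunit protein near the peptidyl transferase centre, and Rpl10a. Rpl3 was at 0.0667, 0.0250, 0.0360 and 0.0270 RPKM, and Rpl10a at 0.109, 0.0205, 0.0984 and 0.0708 RPKM in the same order. Both proteins belong to every ribosome of a growing cell, yet their listed levels were under the level listed for Gapdh in WT1, KO1 and KO2.

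**Figure D1:**
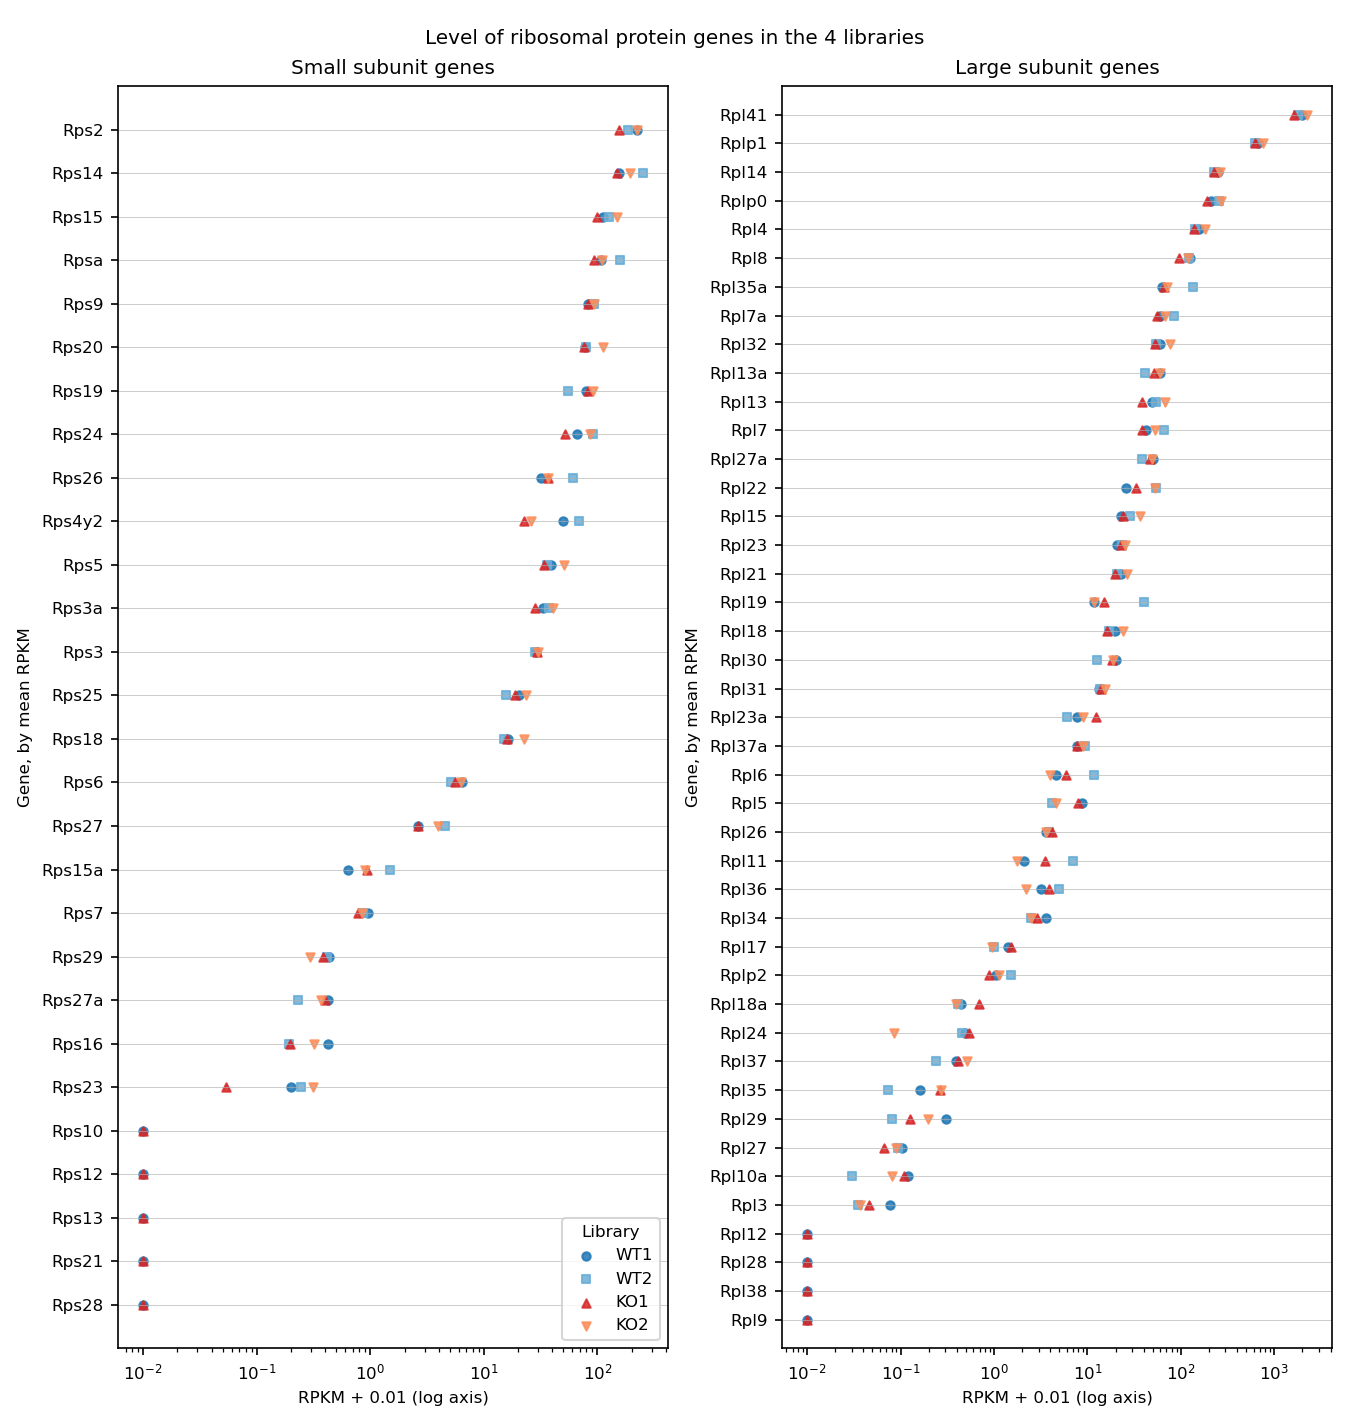
Level of ribosomal protein genes in the 4 libraries, as RPKM with a small offset on a log axis, for small subunit genes (left; some members are not shown) and large subunit genes (right) sorted by mean; each point is 1 library. Rpl41 stands at the top with a mean of 1917 RPKM, and the 9 genes at the left edge were listed at 0 in WT1 and KO1 and have no entry in WT2 and KO2.

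The family's share of the summed RPKM was close in the WT libraries and further apart in the KO libraries. Members listed at or near 0 enter this share with those values, and X-linked members are left out. It therefore does not measure the part of ribosomal protein mRNA in the cells. The family's share was 2.98% in WT1, 3.00% in WT2, 2.72% in KO1 and 3.42% in KO2, so that both WT libraries lay between the KO libraries. The KO mean was 3.07% (SD 0.5, n = 2) and the WT mean 2.99% (SD 0.0141, n = 2), a difference of 0.0746 points with an exact two-sided permutation p of 1.0, where the smallest p that 2 against 2 libraries can give is 0.333. Within replicate 1 the KO share was lower by 0.269 points (KO1 minus WT1 of -0.269), and within replicate 2 it was higher by 0.418 points. The sign rests on KO2, without which the difference was -0.279 points. Rpl41 alone made up 38.2%, 34.2%, 36.1% and 37.8% of the family's sum in WT1, WT2, KO1 and KO2, and with Rplp1 the pair made up 45.9% to 50.9%. Without Rpl41 the family's share was 1.84%, 1.98%, 1.74% and 2.13%, and KO2 was again the highest and KO1 the lowest.

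**Figure D2:**
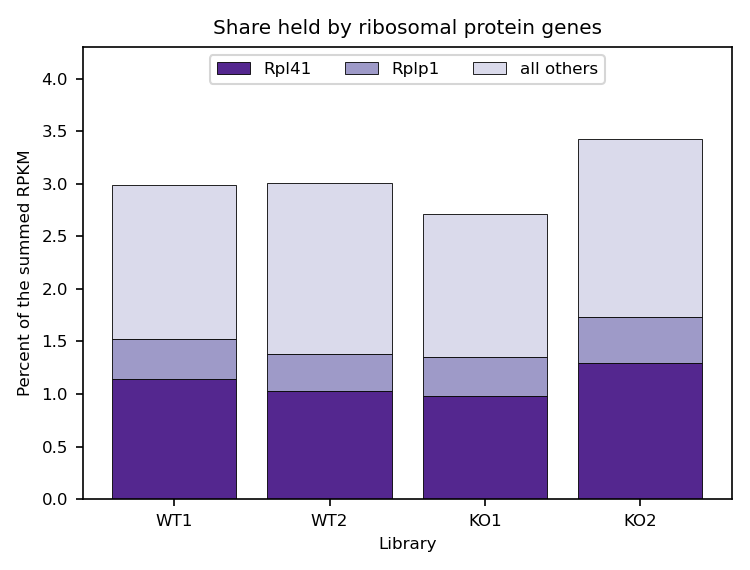
Percent of each library's summed RPKM held by the ribosomal protein genes, stacked as Rpl41, Rplp1 and all other members, in WT1, WT2, KO1 and KO2. The total runs from 2.72% in KO1 to 3.42% in KO2, with both WT libraries between them.

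Low listed levels were not limited to members with many named pseudogenes. RefSeq (GRCm38.p6) names 305 pseudogenes after 56 of the members, and 18 members have none named. Pseudogenes under other symbols were not counted, so these numbers do not measure how many copies could share a member's reads. Leaving out Rps4y2, the 17 members with none had a median level of 34.7 RPKM, and 4 of them were below 1 RPKM. The 27 members with 1 to 3 had a median of 6.34 RPKM with 10 below 1, and the 29 members with 4 or more had a median of 8.75 RPKM with 9 below 1. Across these 73 genes, which share libraries, Spearman's rho between mean level and number of named pseudogenes was -0.16. It is a weak value, given as a description without a test. Single genes went either way: Rpl31 has 24 named pseudogenes and a mean of 14.0 RPKM, and Rps12 has 23 and was listed at 0. Rps21 and Rps28 have none named and were listed at 0. The part of shared reads in these levels was not tested.

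The P-stalk showed how far a listed level can depart from the protein's copy number. Rplp2, the stalk partner of Rplp1, was at 1.03, 1.49, 0.870 and 1.13 RPKM across WT1, WT2, KO1 and KO2. Its named pseudogene Rplp2-ps1, which is no member, was at 474, 516, 420.2 and 529 RPKM in the same libraries. The 2 proteins form a dimer in the ribosome, whereas Rplp1 was at 619.8 RPKM or more in every library. Reads shared by Rplp2 and its copy could be assigned to either, and the authors' treatment of such reads is not stated in the sources at hand.

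The pyrimidine start that the family is known for stood at a minority of the members' annotated starts. RefSeq promoter windows (GRCm38.p6, 250 bases before and 50 after each start) were found for 53 members, in 63 windows, out of 32851 windows in all. A C at the start followed by at least 4 pyrimidines stood in 13 of the 63 windows (20.6%), against 2.51% of all windows. A run of at least 8 pyrimidines beginning with C within 20 bases of the start stood in 30 (47.6%), against 14.5%. On the other strand that run stood in 6 of the 63 (9.52%), against 16.7% of all windows.

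Pyrimidine starts of 10 genes out of the 13 are printed to show that the feature occurs at both ends of the range of levels. Each line gives 10 bases before the annotated start and 16 from it onward, 5′ to 3′ on the gene's strand, with the pyrimidine run from the start in capitals. The first 5 genes had at least 5 RPKM in every library, and the last 5 were at most 1.49 RPKM or were listed at 0. Coordinates are of GRCm38.p6, whereas those of the deposited values are of mm9.
Rpl14, chr9:120571507-120571532, plus strand: ggccctctctCTTCTCgctgagcgcc
Rpl35a, chr16:33056472-33056497, plus strand: gcttgccttcCTCTTTCCgccatctt
Rpl15, chr14:18270971-18270996, minus strand: agaaagccttCTTCCTTTCCTCTggc
Rps18, chr17:33955650-33955675, minus strand: cacttccgctCTCTCTTCCacaggag
Rps6, chr4:86857352-86857377, minus strand: gaagtcgggcCTCTTTTTCgtgacgc
Rplp2, chr7:141447641-141447666, plus strand: cagcgtcttcCTTTCgccgccggacg
Rpl35, chr2:39005116-39005141, minus strand: ccgccctttcCTCTTTCTCTCgaacc
Rpl28, chr7:4792955-4792980, plus strand: tctcgtgtctCTCTTTCCgtctccgg
Rpl38, chr11:114668570-114668595, plus strand: aagcctcgttCTTTCCCCgttctctt
Rps10, chr17:27635229-27635254, minus strand: gcgcacgcccCTTCCTTTCCagcctc

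The run was 6 bases in Rpl14, at 223 to 261 RPKM, and 11 bases in Rpl35, at 0.0626 to 0.260 RPKM. Rpl28, Rpl38 and Rps10, listed at 0, have runs of 8, 8 and 10 bases. The 13 members with a pyrimidine start had a median level of 1.13 RPKM and the other 40 matched members one of 19.4 RPKM, as a description of these genes. Of 3 other motifs searched on both strands, CCGGAAG (the core bound by ETS family factors) stood in 24 of the 63 windows (38.1% against 8.86% of all windows), AAGATGGC (the core of the YY1 motif) in 7 (11.1% against 2.75%) and TATAAA in 4 (6.35% against 13.6%). CCGGAAG overlapped a pyrimidine run near the start in 1 window, and CCGGAAG overlapped AAGATGGC in 0 windows. Overlap of AAGATGGC with a pyrimidine run was not counted. A match is a string of letters and says nothing of binding in these cells.

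The comparison of KO with WT asks whether ribosomal protein mRNAs differ without Lsh. The members went both ways, with a median near 0, and Rps4y2 had the lowest difference among them. Of the 74 members, 53 reached 0.5 RPKM in at least 2 libraries and were tested, 22 of the small and 31 of the large subunit. Their median difference on the log2(RPKM + 0.5) scale, KO minus WT, was 0.01 (quartiles -0.20 and 0.12), against -0.02 (quartiles -0.16 and 0.11) over all 11147 genes tested. It was -0.02 for the small and 0.01 for the large subunit, and within the replicate numbers it was -0.11 and 0.10 over the members, against -0.07 and 0.02 over all genes.

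In limma with genotype as the only term, 0 of 53 members passed an adjusted p of 0.05 (0.0% of all genes did), and 1 member, Rps4y2, had an unadjusted p under 0.05 (0.368%, or 41, of all genes). With the replicate number as a further term, 1 member passed, Rps4y2 (1.89% of members against 0.673% of all genes, and lower in KO, as were 0.296%), and 0 passed as higher (0.377%). In that limma fit 3 members had an unadjusted p under 0.05, Rps4y2, Rpl23a and Rpsa (5.66% against 9.1% of all genes). With both terms 1 residual degree of freedom is left, and the variance pooled over genes carries most of the weight in these p-values. Both KO libraries lay above both WT libraries for 4 members, Rpl23a, Rpl31, Rps3 and Rps19 (7.55% against 6.1% of all genes), and below both for 3, Rpl8, Rps4y2 and Rps7 (5.66% against 7.32%). Within both replicate numbers 8 members were higher in KO (15.1% against 22.5%) and 10 were lower (18.9% against 31.4%).

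Rps4y2 (chr6:148303178-148304118, plus strand, mm9, 941 bases in 1 exon) is a relative of the X-linked small subunit gene Rps4x, and RefSeq lists it as a transcribed pseudogene. It was at 49.2, 68.4, 22.5 and 25.9 RPKM across WT1, WT2, KO1 and KO2, which is 6122, 11364, 2588 and 3319 reads. Both KO libraries lay below both WT libraries. The log2 difference was -1.25 (SE 0.27, 2 libraries per genotype), with a limma p of 0.0084 and an adjusted p of 1.0 with genotype as the only term. With the replicate number as a term Rps4y2 fell by 1.25 (SE 0.17, limma adjusted p 0.00726), with differences of -1.12 within replicate 1 and -1.38 within replicate 2. No member that RefSeq lists as protein coding passed in either limma fit for KO against WT.

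The call of Rps4y2 did not survive every setting. With the replicate number as a term, limma's adjusted p was 0.0895 when genes were represented by their most abundant transcript alone and 0.408 when low genes were kept in, an alternative added after the data were seen. Its reads may be shared with Rps4x and other copies of that gene, so its level is uncertain.

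Markers of other cells differed between the same libraries. The 12 macrophage and blood markers, all present, summed to 60.5 RPKM in WT1, 176 in WT2, 8.35 in KO1 and 86.2 in KO2. Of the 11 tested, 10 were lower in KO within both numbers. The 8 epithelial markers summed to 18.7, 18.4, 8.08 and 5.81 RPKM. Of the 4 epithelial markers tested, 3 fell from WT to KO in each replicate number. The neuronal markers, of which 5 of 7 are present, summed to 31.2, 16.1, 46.2 and 33.0 RPKM. This sum rose from WT to KO in each number, as did 1 of the 2 neuronal markers tested. The other tested marker did not, and the median of the 2 within replicate 1 was -0.1 on the log2 scale. Skeletal muscle markers summed to 153, 56.3, 87.3 and 62.0 RPKM, highest in WT1. Of the 3 muscle markers tested, 1 rose and 1 fell from WT to KO in each number. For all these marker counts, 22.5% of all genes tested rose and 31.4% fell from WT to KO in each number. Of the erythroid markers Hba-a1, Hba-a2, Hbb-b1, Hbb-b2 and Slc4a1 were at 0. The part of these markers in the difference of Rps4y2 was not tested. In bulk samples fewer cells of a type and less RNA per cell cannot be told apart.

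Beside Rps4y2 the lowest members with 1 sign in both numbers were Rpsa and Rps24. Rpsa, a small subunit protein also known as the laminin receptor, was at 108, 157, 92.8 and 109.6 RPKM across WT1, WT2, KO1 and KO2 (log2 difference -0.36, SE 0.30). KO2 lay above WT1, so the groups overlapped, and limma's adjusted p was 0.538 with the number as a term. The Rpsa difference was -0.09 without WT2 and -0.63 without WT1. Rps24, a small subunit protein, was at 66.2, 91.3, 51.3 and 85.1 RPKM (log2 difference -0.23, limma adjusted p 0.802 with the number as a term). Its groups overlapped too, and without KO1 its difference was 0.13.

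The highest such members were Rpl23a, Rps19 and Rpl15. Rpl23a, a protein at the exit of the peptide tunnel, was at 7.72, 6.06, 12.2 and 9.04 RPKM (log2 difference 0.58, SE 0.29). Both KO libraries lay above both WT libraries, by 0.63 within replicate 1 and 0.54 within replicate 2, and limma's adjusted p was 0.195 with the number as a term and 1.0 without it. The gene has 13 named pseudogenes. Rps19, a small subunit protein needed to mature the small subunit rRNA, was at 79.9, 55.4, 81.9 and 91.7 RPKM (log2 difference 0.38, limma adjusted p 0.639 with the number as a term). Its groups did not overlap, but WT1 and KO1 differed by only 0.04 on the log2 scale, and the Rps19 difference was 0.12 without WT2 and 0.64 without WT1. Rpl15 was at 23.0, 28.5, 23.7 and 36.6 RPKM (log2 difference 0.20, limma adjusted p 0.847 with the number as a term), with overlapping groups and a difference of -0.11 without KO2.

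The role groups did not stand apart in the genotype comparison. Of the 3 P-stalk genes 0 passed in either limma fit, and their log2 differences were -0.04 for Rplp0, 0.10 for Rplp1 and -0.22 for Rplp2. Rpl5 and Rpl11, which form a particle with 5S rRNA that can bind Mdm2 when ribosome assembly fails, had log2 differences of 0.01 and -0.56. For Rpl11 the sign differed between the numbers, 0.63 within replicate 1 and -1.75 within replicate 2, and WT2 was its highest library. For the human disorder Diamond-Blackfan anemia, a chosen list of 10 members mutated in it was used, which is not a full count of such genes. Of these 9 were tested (Rps10 was at 0), with a median difference of -0.18, and 0 passed in either limma fit. In this list 1 gene was higher in KO within both numbers, Rps19, and 2 were lower, Rps7 and Rps24. Over all genes tested 22.5% were higher and 31.4% lower.

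Other members with known mutants or regulation gave 0 calls in either limma fit or were under the limit for testing. Rpl26, another gene of that disorder, was at 3.62, 3.90, 4.15 and 3.58 RPKM across WT1, WT2, KO1 and KO2, with overlapping genotypes. Rps7 was at 0.953, 0.849, 0.765 and 0.833 RPKM, with both KO libraries below both WT libraries by a margin smaller than the spread between the WT libraries. Of the genes known from mouse mutants with altered patterning or pigmentation, Rps20 was at 77.4, 79.6, 75.7 and 112 RPKM, Rpl24 at 0.479, 0.442, 0.529 and 0.0757 RPKM, and Rpl38 was listed at 0. KO2 was the highest library for Rps20 and the lowest for Rpl24. Rps6, the small subunit protein phosphorylated by S6 kinase, was at 6.36, 5.15, 5.55 and 6.23 RPKM, with a log2 difference of 0.04. Rps27a, a fusion of ubiquitin and a small subunit protein, was at 0.415, 0.221, 0.388 and 0.358 RPKM, under the limit for testing.

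**Figure D3:**
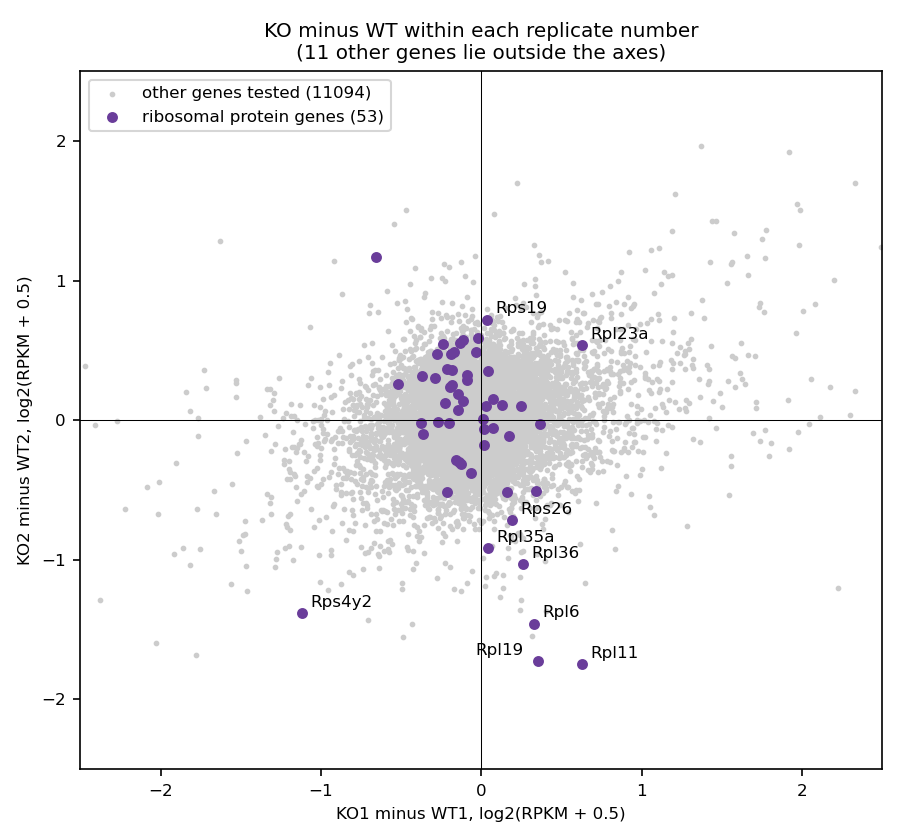
KO minus WT on the log2(RPKM + 0.5) scale within replicate 1 (x axis) and within replicate 2 (y axis) for the 53 tested ribosomal protein genes (purple) and the other tested genes (grey). Rps4y2, listed by RefSeq as a transcribed pseudogene, lies low on both axes, while Rpl11, Rpl19 and Rpl6 lie low on the replicate 2 axis alone.

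The members differed between KO2 and WT2 much more than between KO1 and WT1. The SD over members of the log2 difference was 0.607 for KO2 minus WT2 and 0.293 for KO1 minus WT1. Over all genes tested the order was the opposite, with 0.308 and 0.373. Without Rps4y2 the members' values were 0.583 and 0.256. This pattern was chosen after the values were seen, and with 1 library for each genotype and number it has no test.

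Between KO2 and WT2, 10 of the 53 members (18.9%) were at least 1.5-fold apart, against 5.03% of all genes, among them Rpl6, Rpl11, Rpl19, Rpl35a, Rpl36, Rps4y2, Rps19 and Rps26. Between KO1 and WT1 there were 4 (7.55% against 8.66%), among them Rpl11, Rpl23a and Rps4y2. Among genes with a mean of at least 10 RPKM, where 1 read matters less, 7 of 38 members (18.4%) were that far apart between KO2 and WT2, against 3.07% of all such genes.

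Among the 4 libraries, WT2 was the one that stood apart for these genes. Members at least 1.5-fold from the mean of the other 3 libraries made up 28.3% in WT2, near the 27.3% of all genes. In WT1, KO1 and KO2 they made up 7.55%, 5.66% and 11.3%, against 21.7%, 26.8% and 21.7% of all genes. In WT2, 5 members were at least 1.5-fold above each of the other 3 libraries (9.43% against 1.88% of all genes). For WT1 (0.673% of all genes), KO1 (1.69%) and KO2 (0.709%), 0 members were that far above. The number at least 1.5-fold below the other 3 was 0 for WT1 (1.75%), WT2 (0.682%), KO1 (2.89%) and KO2 (0.206%). The 5 members were Rpl6, Rpl11, Rpl19, Rpl35a and Rps26, and they lie on chromosomes 5, 4, 11, 16 and 10.

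Rpl19, a large subunit protein that bridges to the small subunit, was at 11.6, 40.5, 15.0 and 11.9 RPKM across WT1, WT2, KO1 and KO2. Rpl11 was at 2.06, 6.99, 3.46 and 1.73 RPKM, and Rpl6, a large subunit protein, at 4.62, 11.8, 5.92 and 3.98 RPKM. In all 3 genes WT2 was at least 1.5-fold above every other library, while WT1 and KO2, which differ in genotype and in number, were close together. Rpl35a, whose start is among those printed above, was at 63.2, 136, 65.1 and 71.7 RPKM. Rps26, a small subunit protein at the mRNA exit channel, was at 32.1, 61.0, 36.8 and 36.9 RPKM. For these 2 genes WT1, KO1 and KO2 lay within a narrow range and WT2 above it.

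Rpl36, a large subunit protein, was at 3.14, 4.94, 3.87 and 2.17 RPKM, highest in WT2 and lowest in KO2. Relative to the mean of the other 3 libraries, WT2 differed on the log2 scale by up to 1.63, for Rpl19, and by -0.67 for Rpl5 and -0.61 for Rpl23a, and its median difference over the tested members was 0.03. WT2 is also the library with the most reads and the highest sum of macrophage and blood markers. Their part in this pattern was not tested.

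**Figure D4:**
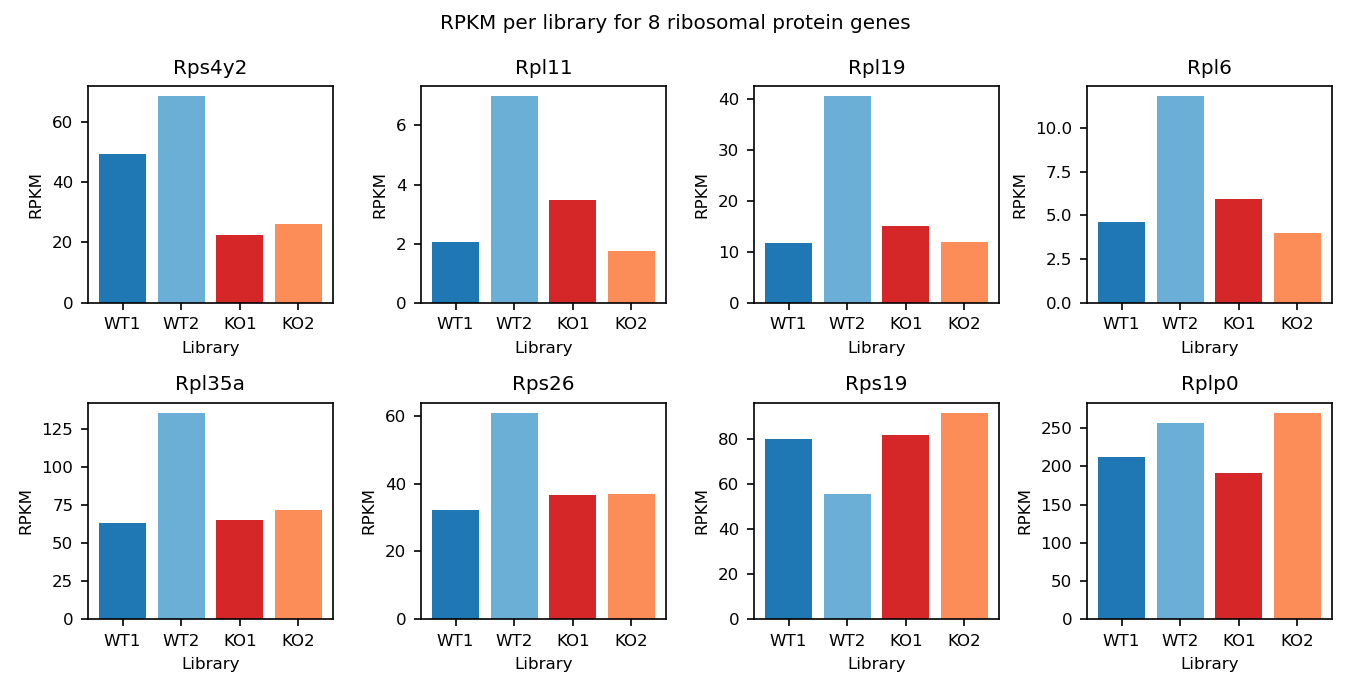
RPKM of 8 members in each library, 1 bar per library and a linear axis from 0. Rps4y2 is among them and is listed by RefSeq as a transcribed pseudogene. WT2 is the tallest bar for Rpl11, Rpl19, Rpl6, Rpl35a and Rps26 and the shortest for Rps19, both KO bars are low for Rps4y2, and Rplp0 is shown as an abundant gene with 192 to 270.1 RPKM.

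The same split appeared when libraries were compared in pairs. Over the 53 members, Pearson's r of log2(RPKM + 0.5) was 0.993 between WT1 and KO1, 0.991 between WT1 and KO2, 0.989 between KO1 and KO2, 0.973 between WT2 and KO1 and 0.968 both between WT1 and WT2 and between WT2 and KO2. The 3 pairs without WT2 thus had the highest values. Over all genes tested the pairs of like number had the highest values, 0.980 and 0.983, and the other 4 pairs lay between 0.874 and 0.906. These are correlations across genes, which are not independent replicates, and the pairs share libraries.

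**Figure D5:**
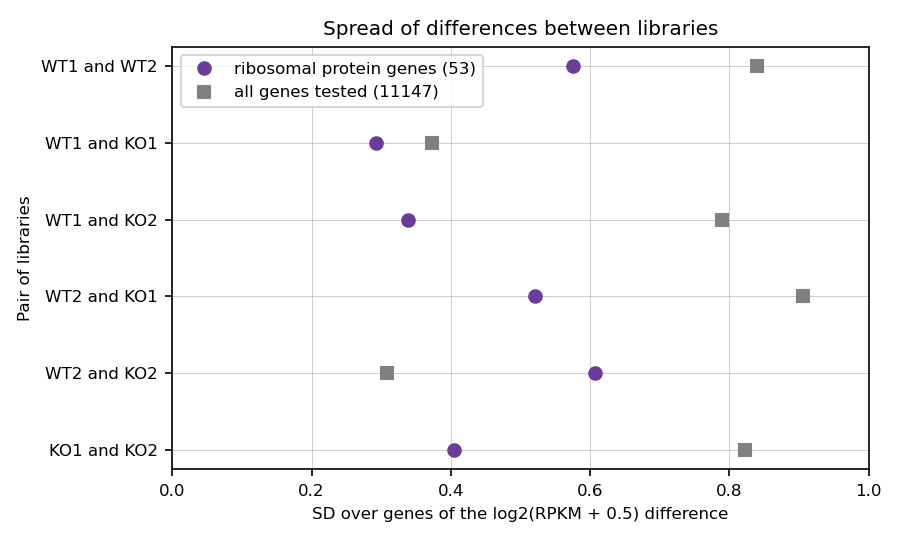
SD over genes of the log2(RPKM + 0.5) difference for each of the 6 pairs of libraries, for the 53 tested ribosomal protein genes (circles) and all 11147 genes tested (squares). The members' 3 highest values, 0.521 to 0.607, are those of pairs with WT2, and WT2 and KO2 is the only pair in which the members' value exceeds that of all genes.

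Few members differed between the replicate numbers. In limma with both terms, 7 of 53 members (13.2%) differed between replicate 2 and replicate 1, against 47.8% of all genes. Of these, 6 were higher in replicate 2 (11.3% against 35.8%), Rpl7, Rpl15, Rpl22, Rps14, Rps24 and Rps27, and 1 was lower, Rpl5 (1.89% against 11.9%). The difference between these shares was not tested, and the cultures cannot be told apart from the tables, whose entries differ by number.

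Rpl22, a large subunit protein that also binds other RNAs, was at 25.7 RPKM in WT1 and 33.2 in KO1, and at 54.6 RPKM in WT2 and 53.4 in KO2 (log2 difference 0.88, SE 0.17, limma adjusted p 0.00208). Rpl5 was at 8.68 RPKM in WT1 and 7.97 in KO1, and at 4.12 RPKM in WT2 and 4.57 in KO2 (log2 difference -0.87, SE 0.17, limma adjusted p 0.00207). For both genes the numbers did not overlap. Rpl19 (0.71) and Rpl35a (0.62) had the next highest differences and Rpl17 (-0.42) the next lowest, with limma adjusted p of 0.515, 0.0637 and 0.0716. For Rpl19 and Rpl35a the difference came from WT2, as their values above show. Rpl17 was at 1.41, 0.994, 1.51 and 0.938 RPKM across WT1, WT2, KO1 and KO2.

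The direction of the number comparison depended on scaling. The members' median was 0.16 as deposited, against 0.25 over all genes. With median-ratio scaling it was -0.17, against -0.04, and 1 member was higher (21.5% of all genes) and 9 lower (24.1%). With quantile normalization it was 0.10, against -0.00, and 11 members were higher (20.8%) and 6 lower (20.7%). Rpl22 was higher and Rpl5 lower under all 3 scalings.

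Genes around the ribosome were summarised from lists of the same pathway. Of 3 ribosomal proteins that the symbol rule misses, 0 passed in either limma fit for KO against WT. Gnb2l1 (RACK1), a scaffold on the small subunit, was at 31.9, 44.1, 32.2 and 36.2 RPKM across WT1, WT2, KO1 and KO2. Fau, a fusion of a ubiquitin-like protein and a small subunit protein, was at 2.14, 1.12, 2.13 and 0.998 RPKM. Fau, KO minus WT, differed by -0.0 within replicate 1 and -0.12 within replicate 2 on the log2 scale. Between the numbers Fau was lower in replicate 2 (log2 difference -0.76, limma adjusted p 0.00547). WT2 was the highest library for Gnb2l1.

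Of 7 paralogs, 5 were tested and 1 passed with the number as a term, Rpl39l, at 2.20, 2.40, 17.2 and 12.6 RPKM (log2 difference 2.44, limma adjusted p 0.000346). Rpl39l did not pass with genotype as the only term. Its parent, the X-linked Rpl39, is not analysed here. Of 14 translation factors whose mRNAs carry a 5′ TOP motif, 0 passed, with a median difference of -0.03. Within both numbers 3 of them were higher in KO and 2 were lower, against 22.5% and 31.4% of all genes. Eef1a1, which delivers tRNAs, was at 1076, 1407, 1107 and 1414 RPKM, and Eef2, which moves the ribosome along, at 319, 399, 331 and 406 RPKM. Both were higher in WT2 and KO2 than in WT1 and KO1.

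Ribosome assembly genes and upstream regulators also gave 0 calls for KO against WT in both limma fits. Within both numbers, 2 of 50 tested biogenesis factors were higher in KO and 19 were lower (median -0.07). Of 14 RNA polymerase I genes 1 was higher and 5 were lower (median -0.05). For 72 mitochondrial ribosomal protein genes the counts were 2 and 32 (median -0.11), for 14 regulators of the Myc, mTOR and Larp1 group 0 and 7 (median -0.12), and for 11 p53 targets and related genes 1 and 5 (median -0.05). These counts read against 22.5% higher and 31.4% lower of all genes. Between the replicate numbers 15 of the 50 biogenesis factors were lower in replicate 2, where 11.9% of all genes were, and 14 of the 72 mitochondrial ribosomal protein genes were higher, where 35.8% were.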

How the data were processed

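RNA libraries of WT and KO MEFs (n = 2 each) were compared. Per the labels' protocols, RNA was treated with DNase and RiboMinus, poly-A RNA was taken up on beads, and sequencing used a Genome Analyzer IIx. The deposited unit is RPKM, which the authors computed per RefSeq transcript. The submitters' processing notes name mm9 and Partek, and a deposited readme adds Cufflinks. For the aligner and for reads with several matches, the method is not given in the sources used here. Depth was recovered from whole-read steps of single-exon olfactory receptor loci, within 0.02 of a read.

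Transcripts were summed per symbol, and the 11147 genes that reached 0.5 RPKM in 2 or more libraries were fitted on log2(RPKM + 0.5), a scale that understates changes of low genes. The test was limma 3.58.1 (R 4.3.3; trend and robust variance), two-sided, with Benjamini-Hochberg adjustment over all genes and a threshold of 0.05. Genotype was the only term, and the replicate number as a second term (a replicate block) was an alternative. Over all genes the 2 genotypes' deviations by number correlated at 0.875, and over members at -0.148. The code was tested on simulated data. Scaling, pseudocount, filter and transcript choice were varied and each library was left out.

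The members and lists were chosen with earlier results of these data known. Members named are those called in any fit for KO against WT, the 5 highest and 5 lowest by mean, the 3 highest and 3 lowest by genotype difference with 1 sign in both numbers and by number difference, and those of the role lists. Others, including those standing apart in WT2, were named after their values were seen. Single values of some genes that the rule names are not reported here.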

Additional observations from a re-analysis of the deposited data

How the results depend on the processing

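For KO against WT, limma with genotype as the only term called 0 genes and 0 members under every pseudocount, filter, scaling and transcript setting, and from 0 to 0 when each library was left out. With the replicate block the count of genes was 75, and it was 148 with median-ratio scaling, 185 with quantile normalization, 40 with a pseudocount of 0.1, 3 with the highest-mean transcript and 0 with no filter, the last added after the data were seen. Of the 75 genes these settings shared 74, 74, 38, 3 and 0. The replicate block called 1 member, Rps4y2, as it did with median-ratio scaling (adjusted p 0.00135), quantile normalization (0.0006) and a pseudocount of 0.1 (0.0187), and it called 0 members in the last 2 settings; the labels do not say what the number marks. It changed no other call among members. The members' median difference ran from -0.11 (without KO2) to 0.13 (without KO1) was 0.0 without WT1 and 0.05 without WT2, and was 0.01 to 0.04 under the other settings. The share difference of 0.0746 points ran from -0.279 (without KO2) to 0.428 (without KO1) and was 0.002 without the 10 most abundant genes. Leaving out each library, the difference of Rpl15 ran from -0.11 (without KO2, reversed) to 0.51 and that of Rps24 from -0.60 to 0.13 (without KO1, reversed). The number comparison called 4 members with no filter and 17 with quantile normalization, against 7. The cause of these shifts was not tested. With 2 libraries per genotype small differences were not detectable. With genotype as the only term a large one did not pass either, that of Rpl39l, at a log2 difference of 2.44. The 0 calls of that fit therefore do not show that levels were unchanged. A further 12 members listed near 0 entered only the fits with no filter, which tested 65 members and called 0 for KO against WT.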
